A study of Rattus norvegicus with 18 samples.

Results

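A joined m6A peak is a stretch of enriched RNA that runs over several exons of a transcript, with the introns between them left out. Joined peaks were taken as the peaks of at least 3 exon blocks whose enrichment was from 1.5 to below 3 in the authors' deposited lists. There were 1399 of 9866 peaks in the bufalin list (14.2%) and 1315 of 9170 in the periplocin list (14.3%), so 2714 of 19036 in all. They were set beside the 4155 and 3807 peaks of 1 block in the same enrichment range. The members were thus chosen by the number of blocks and the enrichment, and both are given as descriptions without a test.

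N6-methyladenosine (m6A) is a methyl mark that a writer complex around the enzymes METTL3 and METTL14 places on adenosines of mRNA, and that reader proteins bind to influence splicing, translation and decay. It is known to be dense in long internal exons and near stop codons. It is known to be sparse close to exon junctions, where exon junction complexes keep the writer away, so short internal exons usually carry little of it.

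The cells were H9c2, a wild type myoblast line that came from rat heart, treated with bufalin, treated with periplocin, or grown as controls. Each of the 3 conditions had 3 libraries of antibody-bound RNA (IP) and 3 of RNA before pull-down (input), 18 in all. Bufalin and periplocin are steroids that inhibit the sodium pump. The series asked whether m6A takes part in their cardiotoxicity. The labels give neither dose nor time, so a match of doses between the compounds is not known. It is not labelled whether replicates are separate cultures, so the authors' RNA p-values measure at most the spread between these libraries. The peak caller is not given, so what spread the authors' m6A p-values measure is not known. Both comparisons share the control libraries.

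The deposited tables hold 1 value per peak or gene and comparison, so neither the depth of a library nor the spread between libraries could be shown, and error is given only where the authors deposited a standard error. Which way the m6A change runs is not stated, and it was taken as treated over control throughout. Of 7 skeletal myoblast markers, 5 reached a mean of 10 normalized counts in the table for bufalin and 4 in that for periplocin, with Myod1 at 716 and 631 and Myf5 listed at 0 in both. Of 7 cardiomyocyte markers, 4 reached that mean in both tables, with Tnnt2 at 4293 and 4587, Myh6 at 287 and 291, and Actc1 listed at 0. Endothelial, leukocyte and epithelial lists had 1, 2 and 1 of 4 markers each at that mean in either table, and the epithelial one was Krt8. Their part in the results was not tested.

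Most joined peaks covered 3 blocks. In the bufalin list 873 peaks had 3 blocks, 304 had 4, 115 had 5 and 107 had 6 or more. With periplocin the numbers were 797, 309, 105 and 104. The peak with the most blocks had 18 in the bufalin list and 16 in the periplocin list. Joined peaks had a median of 250 exonic bases with bufalin and 251 with periplocin, against 150 in both lists for single-block peaks. Introns stretched them on the chromosome to a median of 5004 and 4969 bases, and the longest, in Rsrc1, spanned 300734 bases in both lists.

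Internal blocks lie whole within a joined peak, so the choice of members limits their size. No other exons were set beside them. Internal blocks had a median of 99 bases in both lists, with quartiles of 72 and 135 bases in the bufalin list and 73 and 135 bases in the periplocin list. Blocks over 200 bases were 121 of 2381 internal blocks (5.08%) with bufalin and 106 of 2281 (4.65%) with periplocin. The blocks at the 2 ends of a peak were shorter, with medians of 49 and 50 bases, and some held only 1 base. An end block under 10 bases occurred in 280 joined peaks of the bufalin list (20%) and in 254 of the periplocin list (19.3%). When blocks under 10 bases were not counted, 1224 (87.5%) and 1158 (88.1%) of the joined peaks still had at least 3 blocks. Gaps between blocks had medians of 1478.5 and 1463.5 bases, and only 12 of 3780 and 10 of 3596 gaps were under 50 bases.

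**Figure D1:**
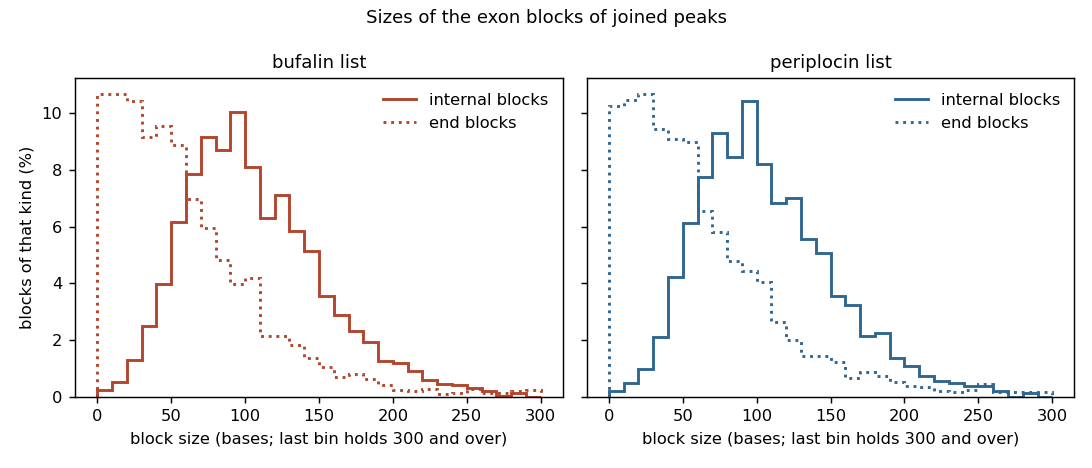
Size of the exon blocks of joined peaks in bases (horizontal axis) against the percentage of blocks of that kind (vertical axis) in each list. Internal blocks (solid line) centred on medians of 99 bases in both lists, and end blocks (dotted line) on 49 and 50 bases.

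Peak lengths clustered at multiples of 50 bases. In the bufalin list 986 of 1399 joined peaks (70.5%) had an exonic length within 2 bases of a multiple of 50, against 3683 of 4155 single-block peaks (88.6%). With periplocin these were 930 of 1315 joined peaks (70.7%) and 3375 of 3807 single-block peaks (88.7%). Of the internal blocks, 1963 of 2381 (82.4%) in the bufalin list and 1970 of 2281 (86.4%) in the periplocin list had both ends at the same bases in the other list.

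Enrichment, which chose the members, had medians of 1.92 and 1.91 in joined peaks, against 1.99 and 1.98 in single-block peaks. The log10 p of enrichment in the authors' deposited lists had a median of -11.8 in joined peaks of both lists, against -9.01 and -9.15 in single-block peaks. Reads per peak were not analysed here, so the part of peak length in this difference was not tested.

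The joined peaks with the most blocks lay in Ift74, Rock2, R3hdm1, Tpr, Usp16, Tlk2, Smc3 and Smarca5. All positions are on the rn6 build as the files give them, and all of these peaks are on the plus strand. Ift74 encodes a protein that carries cargo along the cilium. Its peak in the bufalin list covered 18 blocks and 1472 exonic bases at chr5:113599654-113682240, with an enrichment of 2.24 and a log2 m6A change of -0.086 (the authors' p = 0.443). With periplocin the Ift74 peak began at the same base and ended at 113667910, with 13 blocks, 933 bases, an enrichment of 2.38 and a change of 0.033 (the authors' p = 0.856). The changes were small and opposite in sign, and neither passed a p of 0.05.

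Rock2, a kinase that drives contraction of actin and myosin, had the longest joined peak by exonic bases. It covered 16 blocks and 1989 bases at chr6:42261934-42279265 with the same block edges in both lists. Its enrichment was 2.45 with bufalin and 2.44 with periplocin. Its log2 change was -0.10 (the authors' p = 0.134) with bufalin and -0.061 (p = 0.140) with periplocin. Its internal blocks ran between 70 and 247 bases.

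Tpr encodes a filament protein of the nuclear pore basket. Its longest peak in the bufalin list had 12 blocks and 1297 bases at chr13:67613850-67631420, with an enrichment of 2.76 and a change of -0.16 (the authors' p = 0.0447). With periplocin that stretch was drawn as a peak of 10 blocks that began at 67612390 and a peak of 4 blocks that ended at 67631420, with changes of -0.105 (the authors' p = 0.282) and -0.145 (p = 0.198). Over the whole gene Tpr held 4 joined peaks with 30 blocks and 3692 bases in the bufalin list, and 5 with 32 blocks and 3742 bases in the periplocin list. No gene had more joined peaks than Tpr in either list, and it was named here for that after its values were seen.

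Smc3, a ring subunit of cohesin, had 10 blocks and 1150 bases at chr1:274326385-274338107 with bufalin and 11 blocks and 1200 bases from the same start with periplocin. Its changes were -0.090 with bufalin (the authors' p = 0.230) and -0.034 with periplocin (p = 0.596). Tlk2, a kinase of chromatin assembly, had 11 blocks and 997 bases at chr10:93451636-93492571 in both lists, with changes of -0.14 with bufalin (the authors' p = 0.0794) and -0.10 with periplocin (p = 0.116). Neither gene's change passed a p of 0.05 with either compound.

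Usp16, a histone deubiquitinase, had 11 blocks and 1444 bases at chr11:27110342-27124455 in the bufalin list, while the periplocin peak it met had 4 blocks and 549 bases. Smarca5, the motor of ISWI chromatin remodellers, had 11 blocks and 1241 bases at chr19:30957731-30968263 in the periplocin list and met a peak of 6 blocks and 645 bases in the bufalin list. R3hdm1 had 13 blocks and 1093 bases at chr13:44867000-44896368 in the periplocin list. With bufalin it met a peak of 9 blocks and 647 bases and another of 4 blocks and 348 bases, and the shorter peak stood at the lower limit of enrichment with 1.5. The same transcript stretch could therefore enter the lists as 1 long peak or as shorter ones.

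**Figure D2:**
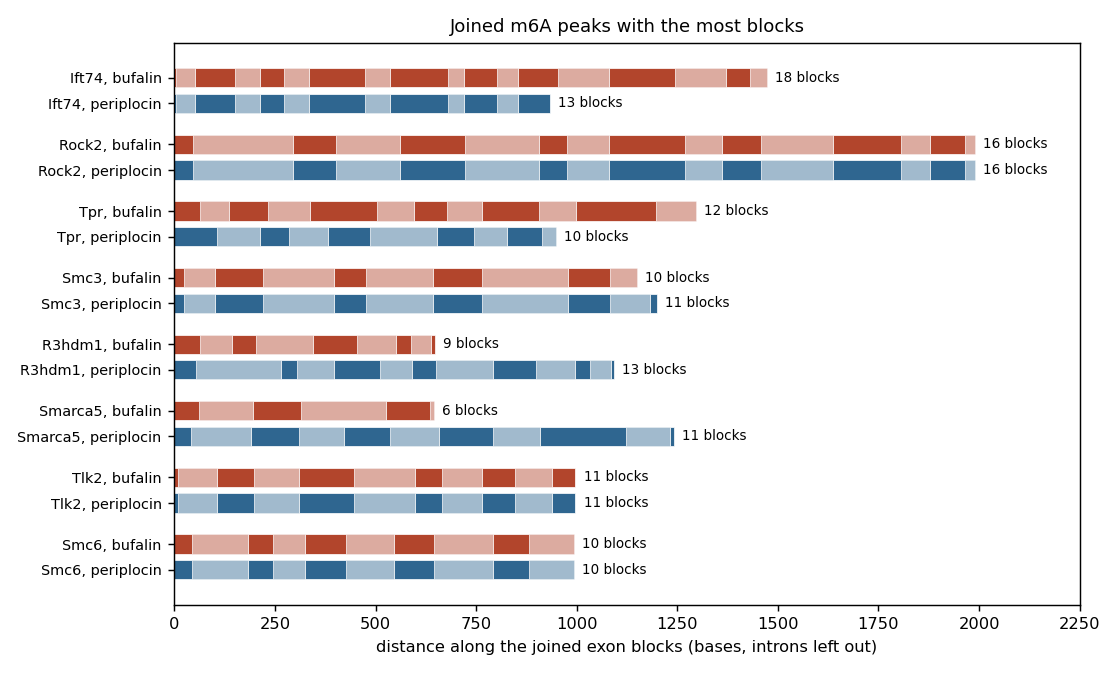
Exon blocks of 8 genes in the order of the list, drawn end to end along the joined exonic bases (horizontal axis), with the bufalin list above the periplocin list for each gene. Each row shows the gene's peak with most blocks from the left edge, so rows are not aligned by genomic position. Alternate shades separate neighbouring blocks; Rock2, Tlk2 and Smc6 had the same blocks in both lists, while Ift74 had 18 and 13.

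Identical blocks in both lists were found for 736 of 1399 bufalin peaks (52.6%) and 731 of 1315 periplocin peaks (55.6%). Of these, 698 were joined members in both lists. A further 415 (29.7%) and 412 (31.3%) met a different joined peak, 145 (10.4%) and 104 (7.91%) met a peak of 2 blocks, and 60 (4.29%) and 36 (2.74%) shared no base with any peak of the other list. Among single-block peaks, 48.3% with bufalin and 52.3% with periplocin had identical blocks in the other list. No base was shared by 15.3% and 7.96% of them. The comparisons share the control libraries, so these are counts of shared intervals and no result on the compounds. Besides Rock2 and Tlk2, the identical peaks with most blocks were in Smc6, Clip1 and Eif3a.

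Smc6 is a subunit of the Smc5/6 complex of DNA repair. Its peak had 10 blocks and 993 bases at chr6:36951723-36964149 and changes of -0.092 with bufalin (the authors' p = 0.354) and -0.090 with periplocin (p = 0.235). Clip1 encodes a protein that tracks growing microtubule ends. Its peak had 9 blocks and 1395 bases at chr12:38399992-38425431 and changes of 0.013 with bufalin (the authors' p = 0.868) and 0.017 with periplocin (p = 0.976). Eif3a encodes a subunit of a translation initiation factor. Its peak had 9 blocks and 1195 bases on the minus strand at chr1:282146183-282153466, with changes of -0.055 with bufalin (the authors' p = 0.422) and 0.040 with periplocin (p = 0.366).

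Joined peaks were carried by 1130 genes in the bufalin list and by 1102 in the periplocin list, which were 22.1% of 5122 and 22.6% of 4879 genes with any peak. Most of these genes had 1 joined peak (912 and 931), 173 and 138 had 2, and 45 and 33 had at least 3. A single-block peak of the same range was present in 361 (31.9%) and 340 (30.9%) of them. Over all genes with any peak the shares were 52.8% and 52.6%. Genes with 4 joined peaks in both lists were Cep290, a protein of the ciliary base, Chd1, a chromatin remodeller, Myo5a, a myosin that carries vesicles, and Nedd4, a ubiquitin ligase. These were named after their values were seen. In Nedd4 the 4 peaks had the same blocks in both lists, with enrichments from 1.55 to 2.01 in the bufalin list and from 1.56 to 2.07 in the periplocin list. Members of the same gene share its RNA and are not independent of each other.

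Joined peaks lay more often on the plus strand of the genome than on the minus strand. In the bufalin list 971 of 1399 joined peaks (69.4%) were on the plus strand, against 2471 of 4155 single-block peaks (59.5%). With periplocin 939 of 1315 joined peaks (71.4%) were on the plus strand, against 2302 of 3807 single-block peaks (60.5%). With 1 joined peak per gene the shares were 67.9% of 1130 genes and 70.1% of 1102, against 58.6% and 60.2% for genes with single-block peaks. All peaks of a list, joined ones included, stood at 61.2% and 62.1%.

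The plus-strand share was higher in groups with more blocks. For 1, 2, 3, 4, 5 and 6 or more blocks it was 59.5%, 65.6%, 66.9%, 70.7%, 73.9% and 81.3% in the bufalin list. With periplocin it was 60.5%, 66.9%, 68.5%, 74.1%, 73.3% and 83.7%, so only the step from 4 to 5 blocks ran the other way. Genes that reached a mean of 10 normalized counts numbered 10679 with bufalin and 10695 with periplocin. A RefSeq strand (GRCr8, matched by name) was found for 8502 and 8519, of which 50.5% and 50.6% lay on the plus strand. For genes with joined peaks, RefSeq gave the strand of the peak list in 888 of 929 matched genes with bufalin. With periplocin it did so in 874 of 921. RefSeq placed 66.5% of the 929 and 68.4% of the 921 on the plus strand. Plus-strand joined peaks had a median enrichment, which chose the members, of 1.97 in the bufalin list and 1.96 in the periplocin list. On the minus strand it was 1.82 and 1.80. Single-block peaks had 2 on the plus strand in both lists, against 1.96 and 1.95. With bufalin the median was 1.86 with 3 blocks and 2.12 with 6 or more, and the part of block number was not tested. No test was made of the plus-strand shares, because peaks of 1 gene share a strand and the lists share control libraries.

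**Figure D3:**
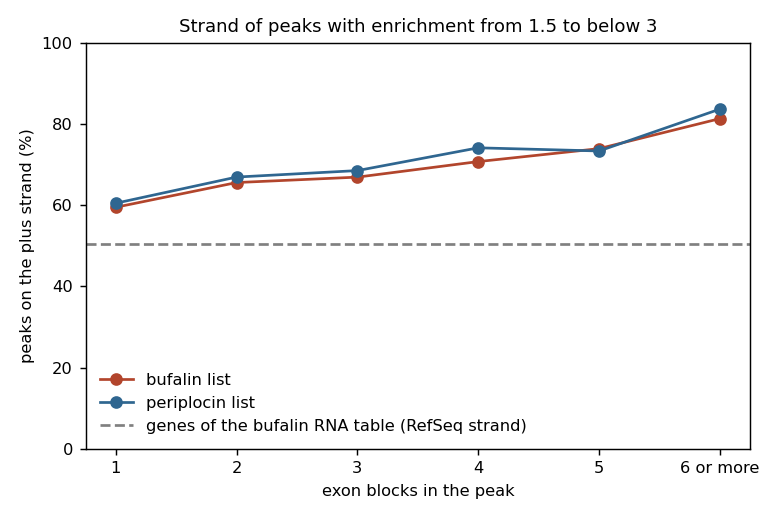
Percentage of peaks on the plus strand (vertical axis, from 0) by number of exon blocks (horizontal axis) for peaks with enrichment from 1.5 to below 3 in each list. The share was 59.5% and 60.5% for 1 block and 81.3% and 83.7% for 6 or more. The dashed line is the 50.5% of strand-matched genes of the bufalin RNA table that RefSeq places on the plus strand.

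Genes with joined peaks were counted in 18 gene lists, of which 3 were added after the peaks had been seen, within genes that reached a mean of 10 normalized counts. Over all such genes with a peak, 1130 of 5109 (22.1%) carried a joined peak in the bufalin list and 1101 of 4866 (22.6%) in the periplocin list. Of 15 genes of SMC proteins, cohesin and condensin with a peak, which hold and fold chromosomes, 12 (80%) had a joined peak with bufalin and 14 (93.3%) with periplocin, while 2 (13.3%) had a single-block peak in range with either compound, against 52.9% of all such genes with bufalin and 52.5% with periplocin. Of 16 golgins and vesicle tethers, 14 (87.5%) had a joined peak in both lists. A single-block peak in range was also present in 10 of them (62.5%) with bufalin and 11 (68.8%) with periplocin. Centrosome and intraflagellar transport genes had a joined peak in 21 of 34 (61.8%) with bufalin and in 24 of 33 (72.7%) with periplocin. Their single-block shares were 26.5% and 27.3%. These are the 3 added lists, so their shares describe how they were picked.

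Among the other lists, chromatin regulators had a joined peak in 9 of 14 genes (64.3%) with bufalin and in 10 of 13 (76.9%) with periplocin. Smarcc1, a subunit of the SWI/SNF remodeller, had 6 blocks and 546 bases in both lists, with enrichments of 1.82 with bufalin and 1.96 with periplocin. Of 17 myosins, kinesins and dyneins, 11 (64.7%) had one in the bufalin list and 8 (47.1%) in the periplocin list, among them Kif5b, a kinesin that moves cargo along microtubules, with 6 blocks and 649 bases in both lists. Collagens and fibrillins had one in 6 of 11 genes (54.5%) with bufalin and 6 of 10 (60%) with periplocin. Translation factors and aminoacyl-tRNA synthetases had one in 12 of 31 (38.7%) with bufalin and 12 of 26 (46.2%) with periplocin.

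Ion transport ATPases and exchangers, a list that holds the compounds' target, had a joined peak in 4 of 7 genes (57.1%) with bufalin and 4 of 9 (44.4%) with periplocin. They were Atp2a2, Atp2b1, Atp2b4 and Slc8a1, which move calcium, and no subunit of the sodium pump was among them. Slc8a1, the sodium and calcium exchanger of heart muscle, had 6 blocks in only 250 bases on the minus strand at chr6:4307794-4315617, the same in both lists. Its change was 0.076 (the authors' p = 0.675) with bufalin and 0.032 (p = 0.907) with periplocin. Atp2b1, a calcium pump of the cell membrane, had 4 blocks and changes of -0.18 with bufalin (the authors' p = 0.290) and 0.027 with periplocin (p = 0.803).

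Immediate early genes stood at the other end, with a joined peak in 2 of 22 genes (9.09%) with bufalin and in 1 of 20 (5%) with periplocin, while 15 (68.2%) and 14 (70%) had a single-block peak in range, against 52.9% and 52.5% of all genes with a peak. Cytosolic ribosomal proteins were low in both kinds, with a single-block peak in range in 35% of genes with bufalin and 31.6% with periplocin. They had a joined peak in 2 of 20 (10%) with bufalin and 3 of 19 (15.8%) with periplocin. Matrix glycoproteins and proteoglycans had one in 1 of 10 (10%) with bufalin and 1 of 9 (11.1%) with periplocin, the adhesion protein Postn, with 8 blocks in both lists. Of the m6A machinery, 2 of 13 genes (15.4%) had one with bufalin and 2 of 14 (14.3%) with periplocin. They were the writer subunit Mettl14, with 4 blocks and 200 bases, and the writer cofactor Zc3h13, with 3 joined peaks in each list. The Zc3h13 peak with most blocks had 6 blocks and 751 bases in the bufalin list and 7 and 801 in the periplocin list. The number of exons per gene was not analysed here, and its part in these shares was not tested.

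Other lists lay between these. Sarcomere and muscle genes had a joined peak in 5 of 11 genes (45.5%) with bufalin and 6 of 12 (50%) with periplocin, among them Tpm1, the thin filament protein tropomyosin. Giant cytoskeletal linkers and filamins had one in 6 of 15 (40%) in both lists, namely Dmd, Dst, Macf1, Sptan1, Tln1 and Utrn. Dmd, which encodes the membrane linker dystrophin, had a peak of 3 blocks and 300 bases in both lists. Its changes were -0.37 with bufalin (the authors' p = 0.108) and -0.29 with periplocin (p = 0.280). Another joined Dmd peak, in the periplocin list, had 4 blocks, 449 bases and a change of -0.29 (the authors' p = 0.845). Spliceosome and SR proteins had one in 6 of 17 (35.3%) with bufalin and 6 of 19 (31.6%) with periplocin. Chaperones had one in 7 of 23 (30.4%) with bufalin and 8 of 22 (36.4%) with periplocin. Exon junction complex and decay factors had one in 3 of 10 (30%) with bufalin and 4 of 10 (40%) with periplocin, and glycolysis and tricarboxylic acid cycle genes in 3 of 11 (27.3%) in both.

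**Figure D4:**
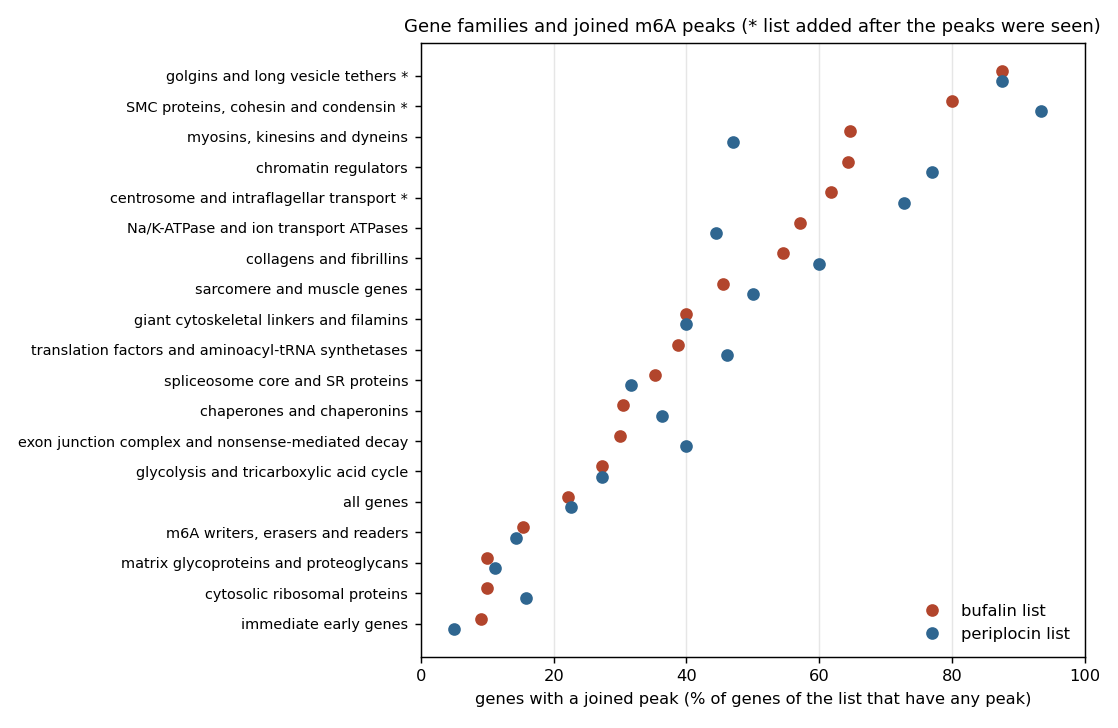
Percentage of the genes of a list with any peak that had a joined peak (horizontal axis), by gene list, for the bufalin and periplocin lists. SMC proteins reached 80% and 93.3% and immediate early genes 9.09% and 5%, with all genes at 22.1% and 22.6%; asterisks mark the 3 lists added after the peaks were seen.

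Of all 2714 joined peaks, 1 passed the authors' test of change. In the authors' deposited bufalin list 1 joined peak passed an FDR of 0.05, against 0.0304% of all peaks (3 of 9866). With periplocin 0 of 1315 did, against 0.0436% of all peaks (4 of 9170), while 57 had an unadjusted p under 0.05. The FDR is the authors', adjusted over their whole list, and no other tool could be run on these files.

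The called peak was in Dock1, which encodes an exchange factor that activates Rac in cell migration and myoblast fusion. It had 3 blocks of 95, 86 and 69 bases at chr1:207330475-207340222 on the plus strand, 250 bases in all, with an enrichment of 2.0. The authors' deposited list gives it a log2 change of 1.37 (p = 6.17e-06, FDR = 0.0309). Read as treated over control, m6A there was 2.58-fold higher with bufalin. With periplocin the Dock1 peak that met it began 50 bases earlier, at 207330425, with 300 bases and an enrichment of 1.55. Its change was 1.36 (the authors' p = 0.00457, FDR = 0.849), past p but not FDR. Another joined Dock1 peak of the bufalin list ran the other way, at -0.35 (the authors' p = 0.520). It had 3 blocks and 100 bases at chr1:206956335-206965687 and shared no base with a periplocin peak. RNA of Dock1 in the authors' deposited tables stood at -0.083 ± 0.092 (SE, log2) with bufalin and -0.033 ± 0.062 with periplocin, with DESeq adjusted p-values of 0.812 and 1.0.

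At an unadjusted p under 0.05, 73 joined peaks (5.22%) were listed with bufalin, against 2.14% of single-block peaks and 3.04% of all peaks. Of the 73, 64 were lower and 9 higher, against 2.27% of all peaks lower and 0.77% higher. With periplocin 57 joined peaks (4.33%) were listed, against 2.42% of single-block peaks and 3.37% of all peaks. Of the 57, 34 were lower and 23 higher, against 1.9% of all peaks lower and 1.47% higher. None of these but Dock1 with bufalin passed the FDR. What share these p-values list when nothing changes was not tested, so no conclusion is drawn from the shares of 5.22% and 4.33%. The part of peak length in these shares was not tested.

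The smallest p-values apart from Dock1 are named after they were seen. With bufalin they were in Hspa9, a mitochondrial chaperone, at 0.21 (the authors' p = 0.000263), and Rbbp8, a factor of DNA end resection, at -0.51 (p = 0.000537). With periplocin they were in Tcea1, an elongation factor of RNA polymerase, at -0.44 (the authors' p = 0.000617), and Gpbp1l1 at -0.34 (p = 0.00214). Fnbp4 had the same blocks in both lists and changes of -0.23 (the authors' p = 0.00437) with bufalin and -0.25 (p = 0.00537) with periplocin. Hspa9 was listed above 0 and the others below it.

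Joined peaks stood a little below 0 in both comparisons. The median log2 change in the bufalin list was -0.053 in joined peaks, 0.0032 in single-block peaks and -0.021 in all peaks. With periplocin it was -0.022 in joined peaks, 0.0073 in single-block peaks and -0.010 in all peaks. The change was below 0 in 957 joined peaks (68.4%) with bufalin, against 49.1% of single-block peaks and 54.8% of all peaks. With periplocin it was below 0 in 759 joined peaks (57.7%), against 48.2% of single-block peaks and 52.3% of all peaks. The spread of these changes between libraries was not analysed here.

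The spread of the change over peaks was narrower in joined peaks. In the bufalin list the 10th to 90th percentiles ran from -0.25 to 0.14 with 3 blocks and from -0.19 to 0.040 with 6 or more, against -0.30 to 0.29 with 1 block. With periplocin they ran from -0.23 to 0.15 with 3 blocks and from -0.14 to 0.074 with 6 or more, against -0.29 to 0.31 with 1 block. Changes larger than 0.5 in size were listed for 34 joined peaks (2.43%) with bufalin and 20 (1.52%) with periplocin, against 6.52% and 6.44% of single-block peaks. Medians for 3, 4, 5 and 6 or more blocks were -0.049, -0.059, -0.044 and -0.065 with bufalin, and -0.022, -0.012, -0.024 and -0.033 with periplocin. Peaks of 2 blocks, which are not joined peaks here, had medians of -0.024 with bufalin and -0.018 with periplocin. Of these, 57.5% and 54.8% were below 0. Their 10th to 90th percentiles ran from -0.26 to 0.19 with bufalin and from -0.28 to 0.22 with periplocin. A median below 0 and a narrower spread than with 1 block were thus not particular to joined peaks. Within length classes, the interquartile range with bufalin was 0.206, 0.163, 0.137 and 0.099 in joined peaks from 90, 200, 300 and 500 bases on, against 0.332, 0.238, 0.193 and 0.125 in single-block peaks. With periplocin it was 0.207, 0.158, 0.144 and 0.130 in joined peaks, against 0.331, 0.241, 0.195 and 0.122 in single-block peaks, so the last class alone was not narrower.

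**Figure D5:**
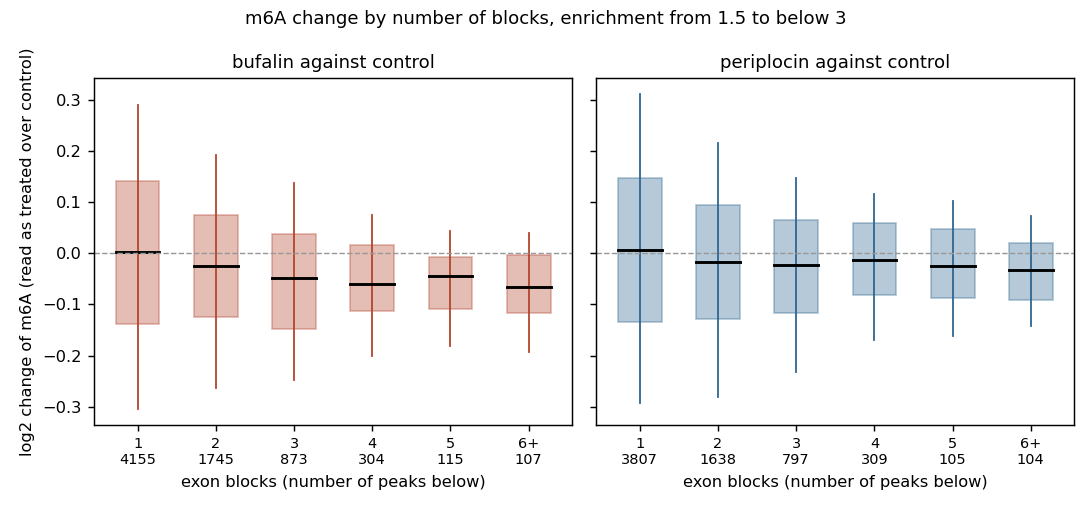
Log2 change of m6A, read as treated over control (vertical axis), by number of exon blocks (horizontal axis, with the number of peaks) for bufalin and periplocin. Black lines are medians, boxes the 25th to 75th and lines the 10th to 90th percentiles over peaks; with 6 or more blocks the medians were -0.065 and -0.033, against 0.0032 and 0.0073 with 1 block.

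Joined peaks had the lower median in each of 4 classes of exonic length in both lists. Among peaks from 200 to below 300 bases, the bufalin median was -0.048 in 472 joined peaks, against 0.0090 in 815 single-block peaks. With periplocin it was -0.018 in 415 joined peaks, against 0.017 in 777 single-block peaks. From 500 bases on it was -0.065 in 179 joined peaks, against -0.012 in 143 single-block peaks with bufalin, and -0.0084 in 171 against 0.019 in 127 with periplocin. With bufalin the joined median was -0.062 on the plus strand and -0.037 on the minus strand, and with periplocin -0.026 and -0.011.

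Medians are given here for the 3 lists of centrosome, collagen and SMC genes, picked after their values were seen, beside -0.053 with bufalin and -0.022 with periplocin over all joined peaks. The 37 joined peaks of centrosome and intraflagellar transport genes had a median of -0.105 with bufalin, with 28 below 0 (957 of 1399 over all joined peaks), and 38 such peaks a median of 0.041 with periplocin, with 15 below 0 (759 of 1315 over all). The 11 joined peaks of collagens had a median of 0.12 with bufalin and 1 below 0, and 10 had a median of 0.0054 with periplocin and 5 below 0. Col5a1, a chain of fibrillar collagen V, had 5 blocks and a change of 0.16 (the authors' p = 0.147) with bufalin, and met a peak of 4 blocks with 0.24 (p = 0.0186) with periplocin. SMC genes had medians of -0.084 over 24 peaks with bufalin and -0.034 over 27 with periplocin. None of the peaks of these 3 lists passed the FDR, and no difference between lists was tested.

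The size of a listed change and its p did not always go together. Hells, a chromatin remodelling ATPase, had 3 blocks and 199 bases, the same in both lists, and was listed at -7.43 with the authors' p = 1 in the bufalin list and at -4.30 with p = 0.164 in the periplocin list. Nolc1, a nucleolar phosphoprotein, was listed at -0.12 (the authors' p = 0.00295) with bufalin and -0.058 (p = 0.00427) with periplocin. The highest listed joined change was in Myh9l1 with bufalin (2.13, the authors' p = 0.0676) and in Arid4b with periplocin (2.10, p = 0.00398). These peaks were named after their values were seen.

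Some joined peaks shared bases with another peak of the same list. This held for 8 joined peaks of the bufalin list (0.572%) and 7 of the periplocin list (0.532%). In Myh9 and Myh9l1, listed at nearly the same place on chromosome 7, the peaks had changes of 1.21 (the authors' p = 0.0355) and 1.14 (p = 0.0178) with bufalin. Hmgn5 and Hmgn5b on chromosome 1 were listed at -0.83 (the authors' p = 0.0117) and -1.01 (p = 0.0234) with periplocin. The peaks of each pair overlap, so they are not separate observations.

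RNA changes were not used to choose the peaks. In the authors' deposited table for bufalin, 790 of the 1130 genes with joined peaks had an adjusted p. Of the 790, 1 gene passed 0.05 (0.127%). This was against 0.301% of all 3321 genes with an adjusted p and 0.419% of those with any peak. It was Myh1, which encodes a myosin of fast skeletal fibres, with 0.47 ± 0.11 (SE, log2; DESeq adjusted p = 0.0130), and its 2 joined peaks had 3 blocks each, with changes of -0.062 (the authors' p = 0.986) and 0.51 (p = 0.370). For periplocin, 11 of 1102 passed (0.998%), against 0.538% of all genes and 1.0% of genes with any peak. All 11 were higher, against 64 of 67 called genes overall and 47 of 49 with any peak, so share and direction were both close to those of genes with any peak.

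The 11 genes were Fosl1, Mdm2, Hnrnpdl, Tsc22d1, Arid4b, Baz2a, Acin1, Dst, Eea1, Akap9 and Macf1, all named here, more than the naming rule allowed, after their values were seen. In the authors' deposited table Fosl1, one of the AP-1 transcription factors, was higher by 0.71 ± 0.11 (SE, log2; DESeq adjusted p = 4.19e-07). Its joined peak had 3 blocks and 343 bases and a change of 0.20 (the authors' p = 0.112). Mdm2, the ubiquitin ligase of p53, was higher by 0.36 ± 0.069 (adjusted p = 0.000107, the authors' deposited table), and its peak of 4 blocks and 247 bases on the minus strand had a change of -0.052 (p = 0.947). Hnrnpdl, an RNA-binding regulator of splicing, was higher by 0.27 ± 0.048 (adjusted p = 2.45e-05, the authors' deposited table). Its peak of 5 blocks and 489 bases had a change of -0.077 (the authors' p = 0.698) and shared no base with a bufalin peak.

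Eea1, a tether of early endosomes, was higher by 0.19 ± 0.044 (adjusted p = 0.00686) in the authors' deposited table. It had 3 joined peaks with periplocin, of 6, 3 and 3 blocks and changes of -0.060 (the authors' p = 0.109), -0.12 (p = 0.427) and 0.024 (p = 0.0155). Macf1, which links microtubules to actin, was higher by 0.16 ± 0.033 (adjusted p = 0.000766) in the authors' deposited table, and its peak of 3 blocks stood at the lower enrichment limit with 1.5. Arid4b, a subunit of a histone deacetylase complex, was higher by 0.23 ± 0.063 (adjusted p = 0.0450) in the authors' deposited table. Of the 11 genes, it alone had a joined peak named among the largest listed changes, and that peak had no counterpart in the bufalin list.

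At an unadjusted p under 0.05, RNA of 106 of 1130 genes with joined peaks (9.38%) was listed with bufalin, against 5% of all genes and 7.25% of genes with any peak. Of the 106, 88 were higher, against 392 of 644 over all genes and 264 of 371 over genes with any peak. With periplocin it was 135 of 1102 (12.3%), against 6.25% of all genes and 9.21% of genes with any peak. Of the 135, 107 were higher, against 528 of 806 over all genes and 317 of 449 over genes with any peak. Genes with joined peaks also had more reads, with a median mean of 3810 and 3881 normalized counts, against 1855 and 1862 for genes with single-block peaks and 663 and 640 for all genes. The part of read depth in these shares was not tested, and normalized counts rise with transcript length as well as with level.

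The limits of enrichment cut through a continuous range. Peaks of at least 3 blocks numbered 1726 and 1597, of which 267 and 233 lay under 1.5 and 60 and 49 at 3 or above. In the bufalin list 15 stood at 1.5 and 9 at 1.49, and 1 each at 2.99 and 3. With periplocin 10 stood at 1.5 and 9 at 1.49, and 3 at 2.99 and 2 at 3. Just inside were Cenpj at 1.5 and Thoc2, an mRNA export factor, at 2.99 with bufalin, and Pdha1, a subunit of pyruvate dehydrogenase, at 1.5 and Mprip at 2.99 with periplocin. Just outside were Lrpprc at 1.49 and Ttc14 at 3 with bufalin, and Sp140 at 1.49 and Efnb2, an ephrin, at 3 with periplocin.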

How the data were processed

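MeRIP-seq libraries of rat H9c2 cells were prepared with a kit for stranded mRNA that adds molecular identifiers, per the labels' protocols. HISAT2, StringTie, DESeq and rn6 are named in the submitters' processing notes; versions and the peak caller: not given in the sources used here. Each deposited peak list gives 1 fold enrichment (a ratio, read as IP over input), log10 p-values of enrichment and a log2 change per peak, per the file headers. The log10 p and FDR of the change were read as such in both lists; in the deposited periplocin list their unit was recorded as a score, since 1 peak outside the joined ones lies beyond the usual log10 range. The deposited RNA tables give a mean signal (normalized counts), log2 fold changes with standard errors, a Wald score and p-values, per the file headers; whether they come from input or IP is not stated. Directions of RNA were read as treated over control, since control means then coincided within 1% in 10608 of 10608 genes. There were 0 columns of per-sample values outside the labels and none per library, so depth per sample was not analysed here.

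Samples were grouped as labelled. Joined peaks were counted, with medians, beside single-block and all peaks; no test was run over members. Calls are the authors' FDR or adjusted p under 0.05. Peaks met when sharing 1 exonic base on the same strand. The code was checked on simulated peaks. The members and lists were chosen with earlier results of these data known. Named genes were, per list, the members with most blocks, with a called change, with identical blocks, up to 3 per gene list, up to 8 peaks with called RNA and those nearest the limits; others, among them the rest of the genes with called RNA, were named after their values were seen. RefSeq names (GRCr8) matched 1128 of 1130 and 1100 of 1102 genes. A RefSeq strand was found by name for 929 and 921 genes with joined peaks. Alternatives covered thresholds, block minimum, enrichment range, length, strand and peaks per gene. No sequence is printed, since it would need the rn6 genome, not used here. Python 3.11.15, numpy 2.4.6, pandas 2.3.3 and matplotlib 3.10.9 were used.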

Additional observations from a re-analysis of the deposited data

How the results depend on the processing

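Of 49 alternatives, 34 left a result about where it stood, 15 moved it and none turned its sign. The called joined peaks with bufalin (1) became 0 at an FDR of 0.01, 73 at an unadjusted p under 0.05 and 0 with at least 4 blocks. With periplocin (0) they became 57 at an unadjusted p under 0.05 and 1 with at least 2 blocks. Called RNA of genes with joined peaks became 106 with bufalin and 135 with periplocin at an unadjusted p under 0.05. The single-block median with bufalin was 0.0096 over lengths like those of joined peaks. The joined median with periplocin was -0.033 at an enrichment of 2 to below 3 and -0.011 on the minus strand. The plus-strand share was 73.6% and 75.9% with at least 4 blocks and 66.7% and 68.8% at any enrichment, for bufalin and periplocin. Bufalin joined peaks that met a periplocin peak were 1339 by 1 shared base and 736 by identical blocks. Strand and short-block alternatives were chosen after seeing the data. The cause of these shifts was not tested, apart from thresholds and block minimums, which change the number counted.

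No paired analysis was possible because the files hold 1 value per comparison and none per library; for the same reason no replicate was left out. Depth per peak is unknown, so no interval is given for an m6A change.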
